A study of Homo sapiens with 6 samples.

Results

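The genes described here are the Src family kinases SRC, LYN, FYN, YES1, LCK, FGR and BLK together with CSK, the kinase that restrains them. They were chosen by gene symbol, and 7 of the 8 were analysed among the 17039 genes of the series, while FGR was not analysed here. Expression was measured by poly(A) RNA sequencing in MDA-MB-231, a triple-negative human breast cancer line bought from a cell bank, and in MDA-MB-231-BR, the brain-seeking variant derived from it and obtained from another laboratory, with 3 libraries of each line. Both lines grew in the same medium with serum, and only MDA-MB-231-BR cells were also kept in G418, so the effect of this drug and of the line cannot be told apart. Each line is a single line as a model, and whether the 3 libraries came from separate cultures is not given, so the p-values measure the spread between these libraries, which may be technical.

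Src family kinases are non-receptor tyrosine kinases that sit at the inner face of the plasma membrane and carry signals from integrins and growth factor receptors to the cytoskeleton. CSK phosphorylates a tyrosine in their C-terminal tail and so holds them in a closed, inactive form, and tyrosine phosphatases that remove this phosphate open them again. SRC, FYN and YES1 are widely expressed, LYN is found in blood cells and in many epithelial tumours, and LCK and BLK are best known from T cells and B cells. In breast cancer cells the family is known for its role in adhesion, migration and invasion. Transcripts were measured here, and kinase activity was not. In bulk RNA a lower share of cells with a transcript and less of it per cell cannot be told apart.

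The values are FPKM as deposited, with a step of 0.01, which divide the fragments of a gene by its length and by the size of the library. An FPKM is per length, so levels of different genes can be set side by side. The summed FPKM ran from 465020 to 472007 in the MDA-MB-231-BR libraries and from 486937 to 496420 in the MDA-MB-231 libraries, and across genes the lowest correlation within a line was 0.997 against at most 0.902 between the lines. A positive fold change means a higher level in MDA-MB-231-BR cells, on the log2(FPKM + 0.1) scale, fitted with limma over the 13465 genes whose mean reached 0.1 FPKM, with Benjamini-Hochberg adjusted p-values. On this scale the change of low genes is understated. As a check of the cell type, VIM, the mesenchymal filament gene that is high in this lineage, stood at 2553 ± 14.8 FPKM in MDA-MB-231-BR cells and at 2306 ± 28.7 FPKM in parental cells (SD, n = 3 each), and CDH1, the epithelial cadherin, did not exceed 0.03 FPKM in any library. Other markers gave a mixed picture. The keratin genes KRT8 and KRT18 averaged 176 and 273 FPKM across MDA-MB-231-BR libraries, and 237 and 352 FPKM across parental libraries. The epithelial gene EPCAM averaged 8.70 FPKM across the former and 5.06 FPKM across the latter. The mesenchymal gene SPARC was low, with averages of 0.18 and 0.67 FPKM in the same order. VIM and CDH1 alone thus do not settle the cell type. Of the 9 testable genes among 11 breast line markers, 3 were higher and 5 lower in MDA-MB-231-BR cells. This is 88.9% at an adjusted p below 0.05, against 77.3% of all genes tested. The changed markers include ERBB2, with a log2 fold change of 0.98, and the keratin gene KRT7, which had 77.0 ± 7.18 FPKM in MDA-MB-231 cells and 0.713 ± 0.110 FPKM in MDA-MB-231-BR cells (SD, n = 3 each).

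In MDA-MB-231-BR cells LYN and YES1 were lower and FYN and CSK were higher than in the parental cells, whereas SRC did not pass the test. The changes were about 2-fold for LYN and FYN and smaller for CSK and YES1. Of the 6 members that could be tested, 5 passed at an adjusted p below 0.05, 3 higher and 2 lower, where 77.3% of all genes tested did so (44.4% higher and 32.9% lower), so a call as such does not set the members apart. Those 5 members had no overlap between the lines, as was the case for 78.4% of all genes tested. One of the 3 higher members, LCK, reached the test through its MDA-MB-231-BR values alone, so its call carries no weight. None of the 6 members met a stricter set of criteria, modelled on those of the study but applied to another test, which were met by 6.45% of the genes tested (4.68% higher and 1.77% lower). The criteria are the same adjusted p, a log2 fold change beyond 1 in size and a mean that reaches 1 FPKM in each line, the last being a choice made here of how to read the limit of 1 FPKM that the study sets. LYN came closest to them, and it met them after median-of-ratios scaling (-1.06), after quantile normalization (-1.10) and without MDA-MB-231-BR replicate 3 (-1.01).

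LYN, a family member that can both start and dampen receptor signals, had 7.72, 8.16 and 8.35 FPKM in the MDA-MB-231-BR libraries and 15.72, 16.58 and 15.82 FPKM in the parental ones. Every MDA-MB-231-BR library was therefore below every MDA-MB-231 library. The mean fell from 16.0 ± 0.470 to 8.08 ± 0.323 FPKM (SD, n = 3 each), or a log2 fold change of -0.98 (± 0.044 standard error, 95% interval -1.08 to -0.88, limma adjusted p = 1.7e-08). A change of this size or more in either direction was seen in 15.7% of the genes tested. The study had picked LYN as a hub gene on these libraries, so its direction is not independent evidence.

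FYN, a broadly expressed kinase that acts at integrins and in neural cells, had 24.06, 23.92 and 23.27 FPKM in the MDA-MB-231-BR libraries and 12.33, 12.56 and 12.47 FPKM in the parental ones. The lines were far apart and the libraries of a line close together. The mean rose from 12.5 ± 0.116 to 23.8 ± 0.422 FPKM (SD, n = 3 each), or a log2 fold change of 0.93 (± 0.032 standard error, 95% interval 0.85 to 1.00, limma adjusted p = 3.1e-09). Changes at least as large were found in 17.3% of the genes tested. FYN was also in a group of genes that the study drew from these libraries for their higher expression in MDA-MB-231-BR cells.

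YES1, a close relative of SRC, had 26.57, 24.66 and 25.03 FPKM in the MDA-MB-231-BR libraries and 36.16, 35.44 and 33.82 FPKM in the parental ones, without overlap. It fell from 35.1 ± 1.20 to 25.4 ± 1.01 FPKM (SD, n = 3 each), or a log2 fold change of -0.47 (± 0.038 standard error, limma adjusted p = 1.4e-06). Of all genes tested, 41.3% changed by this much or more. A pseudogene, YES1P1, is annotated, and whether reads were divided with it was not tested.

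SRC, the founding member of the family, had 13.06, 12.78 and 12.28 FPKM in the MDA-MB-231-BR libraries and 11.77, 12.33 and 12.55 FPKM in the parental ones, and the lines overlapped. The means were 12.7 ± 0.395 and 12.2 ± 0.402 FPKM (SD, n = 3 each). The log2 difference was 0.06 with a 95% interval from -0.04 to 0.15 (adjusted p = 0.24 from limma), so a change larger than 0.15 on the log2 scale lay outside the interval. Its sign turned after median-of-ratios scaling (-0.02) and quantile normalization (-0.03), again short of the threshold.

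CSK, the inhibitory kinase, was the most abundant member in both lines. It had 58.81, 59.91 and 59.45 FPKM in the MDA-MB-231-BR libraries and 39.15, 40.93 and 42.87 FPKM in the parental ones, all of the former above all of the latter. The mean rose from 41.0 ± 1.86 to 59.4 ± 0.552 FPKM (SD, n = 3 each), or a log2 fold change of 0.54 (± 0.034 standard error, limma adjusted p = 2.1e-07). Changes of this size or more were found in 35.7% of the genes tested.

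**Figure D1:**
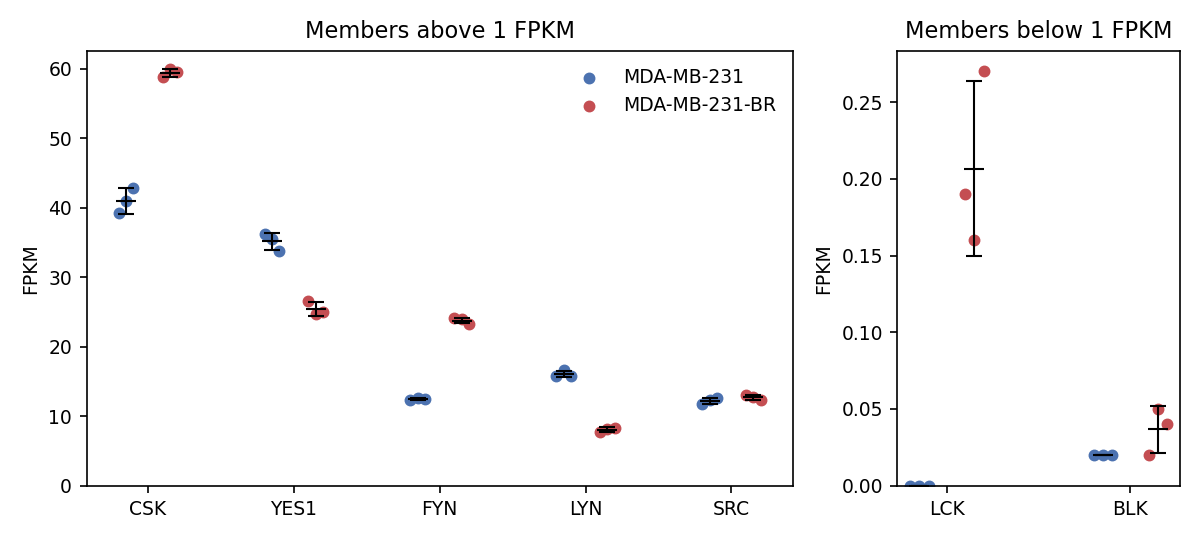
FPKM of the 7 members by library, with the 5 genes above 1 FPKM on the left and LCK and BLK on the right on their own axis. Points are libraries, bars the mean and SD of 3 libraries. CSK and FYN lie higher and YES1 and LYN lower in MDA-MB-231-BR cells, and the SRC points of the lines overlap.

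The lymphoid members were at or near the lower end of the scale. LCK, the kinase that starts T cell receptor signalling, had 0.19, 0.16 and 0.27 FPKM in the MDA-MB-231-BR libraries and is listed at 0 in all 3 parental libraries, so no fold is given. Its adjusted p was 6.6e-05 from limma, but it reached the test through its MDA-MB-231-BR values alone, so its call carries no weight. When any 1 of the MDA-MB-231-BR libraries was left out, the mean of LCK no longer reached 0.1 FPKM and it could not be called. BLK, a kinase of B cells, had 0.02, 0.05 and 0.04 FPKM in the MDA-MB-231-BR libraries and 0.02 FPKM in each MDA-MB-231 library, a difference of at most 3 steps of the table, and its mean was too low to be tested.

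Genes of T cells, B cells and myeloid cells were listed beside them to see whether other lymphoid genes accompanied LCK, and 16 of the 25 were analysed. Their summed FPKM ran from 6.94 to 7.46 in the MDA-MB-231-BR libraries and from 5.75 to 6.06 in the MDA-MB-231 libraries, and 3 of the 16 genes reached 1 FPKM in any library. Of the 7 that could be tested, 4 were higher (CD8A, LAT, LCP2 and SYK) and 2 were lower (CD22 and FCER1G) in MDA-MB-231-BR cells. This is 85.7% called, against 77.3% of all genes tested, so the count as such does not set the list apart. Like LCK, LCP2 and SYK reached the test through their MDA-MB-231-BR values alone, as FCER1G did through its parental values, so their calls carry no weight. CD8A, the alpha chain of the T cell co-receptor, rose from 0.267 ± 0.058 to 1.45 ± 0.081 FPKM (SD, n = 3 each). CD22, an inhibitory receptor of B cells, had 2.24 ± 0.132 FPKM in MDA-MB-231 cells and 1.33 ± 0.231 FPKM in MDA-MB-231-BR cells (SD, n = 3 each). Among the genes too low to be tested, the T cell co-stimulator CD28 had 0.20, 0.18 and 0.19 FPKM in MDA-MB-231-BR libraries, about the level of LCK, and 0.02, 0 and 0 FPKM in parental libraries. The B cell receptor gene CD79A reached at most 0.10 FPKM and the monocyte gene CD14 at most 0.27 FPKM. CD3E, CD79B and CD5 did not exceed 0.04 FPKM in any library, and PTPRC, which encodes the pan-leukocyte antigen CD45, reached at most 0.04. The part of other cells in the LCK values was not tested beyond this.

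The order of the members differed between the lines. In MDA-MB-231 cells it ran CSK, YES1, LYN, FYN, SRC, BLK and LCK, and only the ranges of FYN and SRC, which are neighbours in this order, overlapped. In MDA-MB-231-BR cells it ran CSK, YES1, FYN, SRC, LYN, LCK and BLK, with no overlap between neighbours, although YES1 and FYN lay close, at 25.4 and 23.8 FPKM. LYN thus stood above FYN and SRC in the parental cells and below both in MDA-MB-231-BR cells.

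The make-up of the family was described by its sum, which depends on how the libraries were scaled, and by ratios within a library, which do not. The summed FPKM of the 6 Src family kinases analysed was 71.6, 69.7 and 69.2 in MDA-MB-231-BR cells and 76.0, 76.9 and 74.7 in parental cells, which did not overlap. The mean was 70.2 ± 1.26 against 75.9 ± 1.13 (SD, n = 3 each). The difference of -5.67 FPKM depends on which genes are summed, since it became 2.29 FPKM without LYN, 4.05 FPKM without YES1 and -17.0 FPKM without FYN. After median-of-ratios scaling it was -9.70 FPKM with all 6 kinases and -1.09 FPKM without LYN, so the sign without LYN turns with the scaling. The exact 2-sided permutation test over the 6 libraries gave p = 0.1 for this sum and for each ratio below, which is the smallest p that 3 libraries against 3 can give.

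FYN held 33.8 ± 0.406% of the family sum in MDA-MB-231-BR cells and 16.4 ± 0.249% in parental cells (SD, n = 3 each). LYN held 11.5 ± 0.661% and 21.1 ± 0.436%, and YES1 held 36.2 ± 0.868% and 46.3 ± 1.17% (SD, n = 3 each). The FYN share was 17.4 percentage points higher in MDA-MB-231-BR cells, while that of LYN dropped by 9.63 and that of YES1 dropped by 10.1 points. The share of SRC was 18.1 ± 0.319% against 16.1 ± 0.663% (SD, n = 3 each). The ratio of FYN to LYN was 3.12, 2.93 and 2.79 in MDA-MB-231-BR cells and 0.784, 0.758 and 0.788 in parental cells, the widest gap between the lines among these ratios. Among the members above 1 FPKM, FYN rose most and LYN fell most, so this gap follows from their fold changes and adds nothing to them. The ratio of YES1 to FYN was 1.07 ± 0.037 in MDA-MB-231-BR cells and 2.82 ± 0.110 in parental cells (SD, n = 3 each). CSK stood at 0.846 ± 0.022 of the family sum in MDA-MB-231-BR cells and at 0.540 ± 0.030 in parental cells (SD, n = 3 each), and it was 4.68 ± 0.169 and 3.35 ± 0.054 times as abundant as SRC (SD, n = 3 each).

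**Figure D2:**
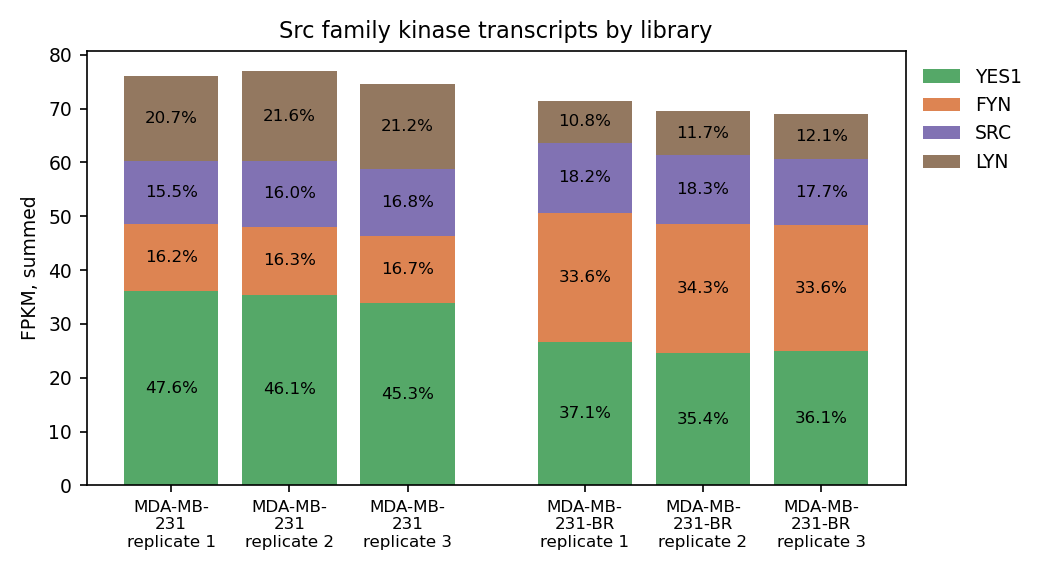
Stacked FPKM of YES1, FYN, SRC and LYN in each of the 6 libraries, with the percentage each gene holds of the sum of the 6 Src family kinases analysed (LCK and BLK are too low to be drawn). The FYN band is wider and the LYN and YES1 bands are narrower in every MDA-MB-231-BR library.

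Each member was also set beside the genes around it on its chromosome, 20 on either side with a mean of 1 FPKM or more, in RefSeq gene order. LYN lies on chromosome 8, and the median log2 fold change of its 40 neighbours was -0.01. None of the 40 fell as far as LYN, while some rose at least as far, with log2 fold changes of 1.92, 1.04 and 0.99. FYN lies on chromosome 6 (GRCh38, 111660332 to 111873452, minus strand), the median of its 40 neighbours was -0.04, and 3 of them rose as far as FYN. The medians around both genes thus lay close to 0. Of all genes tested, 15.7% changed at least as far as LYN and 17.3% at least as far as FYN, in either direction. The counts of neighbours that moved as far, here and below, take only the direction of the member. Such shares over both directions are therefore not directly comparable with them.

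YES1 differed from these. It lies near the end of the short arm of chromosome 18 (GRCh38, 721588 to 812546, minus strand), where 25 neighbours could be taken, 5 of them toward the chromosome end. Their median log2 fold change was -0.56, 22 of the 25 were significantly lower and 15 fell at least as far as YES1. Over all genes tested the median was 0.08 and 32.9% were significantly lower, and 41.3% changed at least as far as YES1 in either direction. CSK on chromosome 15 (GRCh38, 74782057 to 74803198, plus strand) had neighbours with a median of 0.30, of which 12 of 40 rose at least as far. Other neighbours of CSK fell by at least as much, with log2 fold changes of -0.73, -0.75 and -0.86. Of all genes tested, 35.7% changed at least as far as CSK in either direction. SRC on chromosome 20 (GRCh38, 37344685 to 37406050, plus strand) had neighbours with a median of -0.22. Of these 40, 28 were significantly lower, against 32.9% of all genes tested. The neighbours of LCK on chromosome 1 (GRCh38, 32251239 to 32286165, plus strand) had a median of 0.38 and those of BLK on chromosome 8 had 0.02. DNA copy number was not measured, and its part in these values was not tested.

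**Figure D3:**
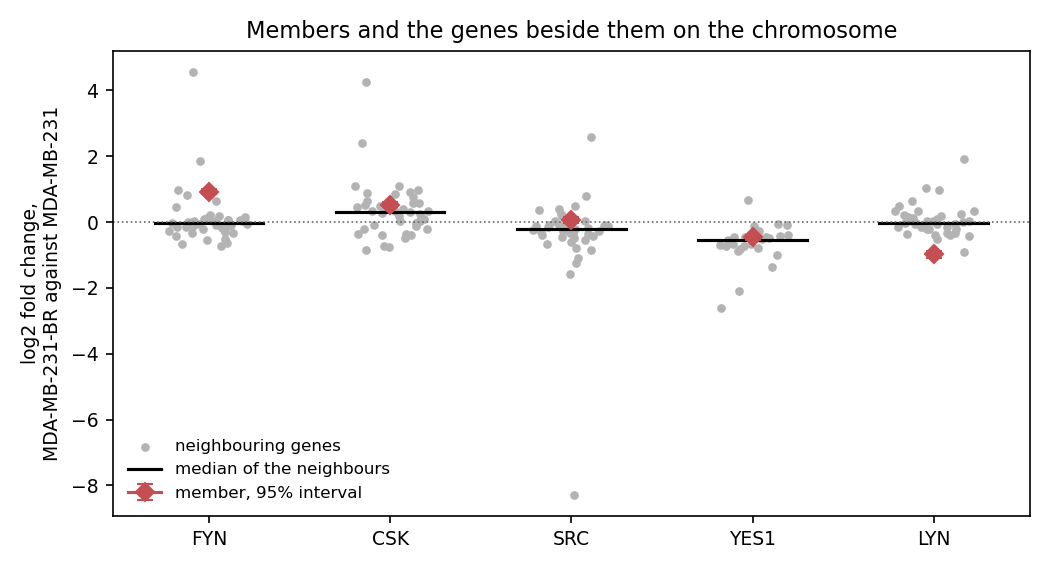
Log2 fold change of MDA-MB-231-BR against MDA-MB-231 cells for 5 members (diamonds, 95% interval) and for the expressed genes on either side of each on its chromosome (grey points, with their median as a line). LYN and FYN lie away from the median of their neighbours, and YES1 lies close to it.

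Promoters of FYN and CSK, which were both higher in MDA-MB-231-BR cells, are shown beside the promoters of LCK. The sequences are from RefSeq on GRCh38.p14 and run 200 bases, from 250 to 51 bases before an annotated start, 5′ to 3′ on the strand of the gene, with CpG dinucleotides in capitals. FYN is given for the most upstream of its 4 annotated starts, since the window of the next start, with 39 CpG dinucleotides, overlaps an exon, and the CSK entry lies downstream of the first base of the gene.

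FYN (chr6:111873503-111873702, minus strand): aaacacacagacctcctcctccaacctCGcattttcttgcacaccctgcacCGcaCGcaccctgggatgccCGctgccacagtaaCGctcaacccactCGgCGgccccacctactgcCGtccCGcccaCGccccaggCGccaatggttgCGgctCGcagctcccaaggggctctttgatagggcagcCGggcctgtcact
CSK (chr15:74788294-74788493, plus strand): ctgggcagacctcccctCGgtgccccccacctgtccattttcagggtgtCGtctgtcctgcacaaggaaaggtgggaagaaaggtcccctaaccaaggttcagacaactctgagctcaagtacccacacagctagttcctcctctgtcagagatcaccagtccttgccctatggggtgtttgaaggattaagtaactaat
LCK first start (chr1:32251015-32251214, plus strand): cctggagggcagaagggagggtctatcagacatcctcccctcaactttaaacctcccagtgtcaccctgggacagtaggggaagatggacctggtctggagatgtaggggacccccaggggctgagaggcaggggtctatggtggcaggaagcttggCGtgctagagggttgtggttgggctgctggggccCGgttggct
LCK second start (chr1:32273871-32274070, plus strand): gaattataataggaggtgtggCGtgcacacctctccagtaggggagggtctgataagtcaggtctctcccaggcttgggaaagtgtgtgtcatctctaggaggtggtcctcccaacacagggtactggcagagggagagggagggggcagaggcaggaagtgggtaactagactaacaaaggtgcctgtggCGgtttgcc

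The FYN window holds 14 CpG dinucleotides, more than 64.9% of the 35116 promoters of the same length, and the CSK window and both LCK windows hold 2 each, with 19.4% of promoters below them. The GC box GGGCGG, searched on both strands, is present once in the FYN window and absent from the CSK and LCK windows, and 35% of all promoters hold it. The windows of the FYN starts that are not printed hold 39, 5 and 0 CpG dinucleotides, so the CpG contrast with CSK and LCK depends on the start taken. These counts describe the windows, and which start was used in these cells was not measured.

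The genes whose profile over the 6 libraries was most like that of a member were found among the 11122 genes with a mean of 1 FPKM or more, by the root mean square difference of log2 values centred on each gene. With 2 groups of libraries this measure mostly reflects the size of the difference between the lines. Closest to LYN were SH3GL1 (0.020), TYMS (0.036) and PIM3 (0.038). Closest to FYN were TSGA10 (0.017), TRMT2B (0.020) and DOCK9 (0.020), and close to SRC were CHAF1B (0.018) and ARHGEF4 (0.020). SH3GL1, which encodes an endophilin, had 37.8 ± 1.71 FPKM in MDA-MB-231-BR cells and 76.2 ± 2.46 FPKM in parental cells (SD, n = 3 each).

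The kinases related to the family were low. FRK had 0.190 ± 0.035 FPKM in MDA-MB-231-BR cells and 0.090 ± 0.026 FPKM in parental cells (SD, n = 3 each) and was the only one of the 2 testable genes to pass, with an adjusted p of 0.018 from limma. The 50% called in this list stand beside 77.3% of all genes tested. FRK reached the test through its MDA-MB-231-BR values alone, so its call carries no weight. That call was lost after quantile normalization and without MDA-MB-231-BR replicate 3 or MDA-MB-231 replicate 1. PTK6, a kinase of epithelia, ran from 1.49 to 2.08 FPKM in MDA-MB-231-BR cells and from 1.48 to 1.52 FPKM in MDA-MB-231 cells (adjusted p = 0.073 from limma). SRMS did not exceed 0.02 FPKM. MATK, the homologue of CSK, had 0.15, 0.13 and 0.06 FPKM in the MDA-MB-231-BR libraries and is listed at 0 in all 3 parental libraries.

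Adaptors that bind CSK and tyrosine phosphatases listed with them changed in both directions. Of 12 CSK-binding adaptors and phosphatases, 9 could be tested, 5 rose and 3 fell (88.9% called, against 77.3% of all genes tested), with a median log2 fold change of 0.15 where that of all genes tested was 0.08. PAG1, the membrane adaptor that recruits CSK to lipid rafts, had 5.51, 5.51 and 5.54 FPKM in the MDA-MB-231-BR libraries and 1.62, 1.46 and 1.53 FPKM in the parental ones. It rose with a log2 fold change of 1.78 (± 0.066 standard error, limma adjusted p = 5.1e-09). LIME1, another adaptor that binds CSK, fell from 8.78 ± 1.47 to 5.08 ± 0.365 FPKM (SD, n = 3 each), or a log2 fold change of -0.77.

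Among the phosphatases, PTPN22, which partners CSK in lymphocytes, had the largest increase of the list, from 0.75, 0.60 and 0.70 FPKM in parental libraries to 3.67, 3.69 and 4.03 FPKM in the MDA-MB-231-BR libraries, or a log2 fold change of 2.32. PTPRE, a receptor phosphatase that activates Src family kinases, rose from 2.57 ± 0.120 to 9.13 ± 0.260 FPKM (SD, n = 3 each), or a log2 fold change of 1.79. This gene was named after its values were seen. The related and more abundant PTPRA rose from 27.9 ± 0.201 to 31.1 ± 0.422 FPKM (SD, n = 3 each), or a log2 fold change of 0.15. PTPN1 had 59.1 ± 0.927 FPKM in MDA-MB-231-BR cells and 60.9 ± 1.72 FPKM in parental cells (SD, n = 3 each, adjusted p = 0.19 from limma). PAG1 and PTPRE, which act on the tail in opposite directions, had log2 fold changes of 1.78 and 1.79.

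Of 12 genes listed as ubiquitin ligases and inhibitory adaptors, 7 could be tested, with a median log2 fold change of 0.66. Of these, 4 rose (CBL, CBLB, SOCS1 and DOK1) and 2 fell (SOCS6 and PDLIM7). Neither role is shown here for PDLIM7, so its decrease should not be read as that of a ligase or inhibitor. The 85.7% called in this list stand beside 77.3% of all genes tested. CBL, the ligase that marks activated tyrosine kinases for degradation, rose from 9.25 ± 0.747 to 16.0 ± 0.393 FPKM (SD, n = 3 each), or a log2 fold change of 0.79 (adjusted p = 6.1e-07 from limma). CBLB rose with a log2 fold change of 0.85, the largest increase of the list. SOCS6 had the largest decrease, of -0.24 on the log2 scale.

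Of the 23 substrates and partners at focal adhesions and the actin cytoskeleton, 21 could be tested, and 13 rose and 7 fell, with a median log2 fold change of 0.30. Of all genes tested, 44.4% rose and 32.9% fell. PTK2, which encodes focal adhesion kinase, the main binding partner of SRC at adhesions, rose from 39.0 ± 1.12 to 59.0 ± 1.42 FPKM (SD, n = 3 each), or a log2 fold change of 0.60 (adjusted p = 4.5e-08 from limma). Its relative PTK2B had the largest decrease, from 1.10, 1.02 and 0.88 FPKM in parental libraries to 0.10, 0.10 and 0.08 FPKM in the MDA-MB-231-BR libraries. PTK2B reached the test through its parental values alone, so its call carries no weight. The scaffold BCAR1 (p130Cas) fell from 51.6 ± 0.895 to 39.0 ± 0.730 FPKM and CTTN, which encodes the actin-binding protein cortactin, fell from 68.8 ± 1.76 to 55.2 ± 0.347 FPKM (SD, n = 3 each). PXN (paxillin) rose from 125 ± 0.927 to 140.0 ± 0.316 FPKM (SD, n = 3 each), or a log2 fold change of 0.16.

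CAV1, the raft protein caveolin that is a classical SRC substrate, rose from 160 ± 0.693 to 342 ± 1.42 FPKM (SD, n = 3 each), or a log2 fold change of 1.09. CDCP1, a transmembrane substrate that binds SRC, rose from 28.3 ± 0.980 to 42.6 ± 0.982 FPKM (SD, n = 3 each). SH3PXD2B, a scaffold of invadopodia, increased most in the list, from 1.07 ± 0.078 to 2.43 ± 0.050 FPKM (SD, n = 3 each), or a log2 fold change of 1.11. CAV1 and SH3PXD2B were the genes of this list that met the stricter criteria, 2 of the 21 tested, where 6.45% of all genes tested met them. Other lists held such genes as well, namely PAG1, PTPRE, STAT5A, GAB2, EGFR and, with a decrease, ITGAV.

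The 26 adaptors and effectors were divided about evenly. Of the 24 tested, 10 rose and 11 fell (87.5% called, against 77.3% of all genes tested), and the median log2 fold change was -0.01. STAT5A, a transcription factor that can be phosphorylated by Src family kinases, increased most, from 1.27 ± 0.105 to 6.30 ± 0.310 FPKM (SD, n = 3 each), or a log2 fold change of 2.22. SH3BP1 had the largest decrease among genes that reached 1 FPKM in a line, from between 5.5 and 6.26 FPKM in parental libraries to between 2.76 and 3.75 FPKM in MDA-MB-231-BR libraries.

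All 13 testable receptors of the 17 listed passed the test, 7 higher and 6 lower, with a median log2 fold change of 0.22 over the 13, where 77.3% of all genes tested were called. EGFR, ERBB2, ERBB3, MET, IGF1R, FGFR1 and PDGFRA were higher in MDA-MB-231-BR cells. AXL, at 234 against 284 FPKM in parental cells, was lower, as were ITGB1, ITGB3, ITGB5, ITGAV and CD44. PDGFRA is listed at 0 in all 3 parental libraries and reached the test through its MDA-MB-231-BR values alone, so its call carries no weight. EGFR had 94.14, 91.21 and 88.11 FPKM in the MDA-MB-231-BR libraries and 34.93, 35.08 and 29.97 FPKM in the parental ones. ITGB1, the shared beta chain of many matrix receptors, fell from 479 ± 16.2 to 246 ± 2.98 FPKM (SD, n = 3 each), or a log2 fold change of -0.96, close to that of LYN. ITGAV had the largest decrease, from 24.8 ± 1.57 to 10.4 ± 0.394 FPKM (SD, n = 3 each). The study had picked EGFR, ITGB1, ITGAV and CAV1 on these libraries, so their directions are not independent evidence.

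**Figure D4:**
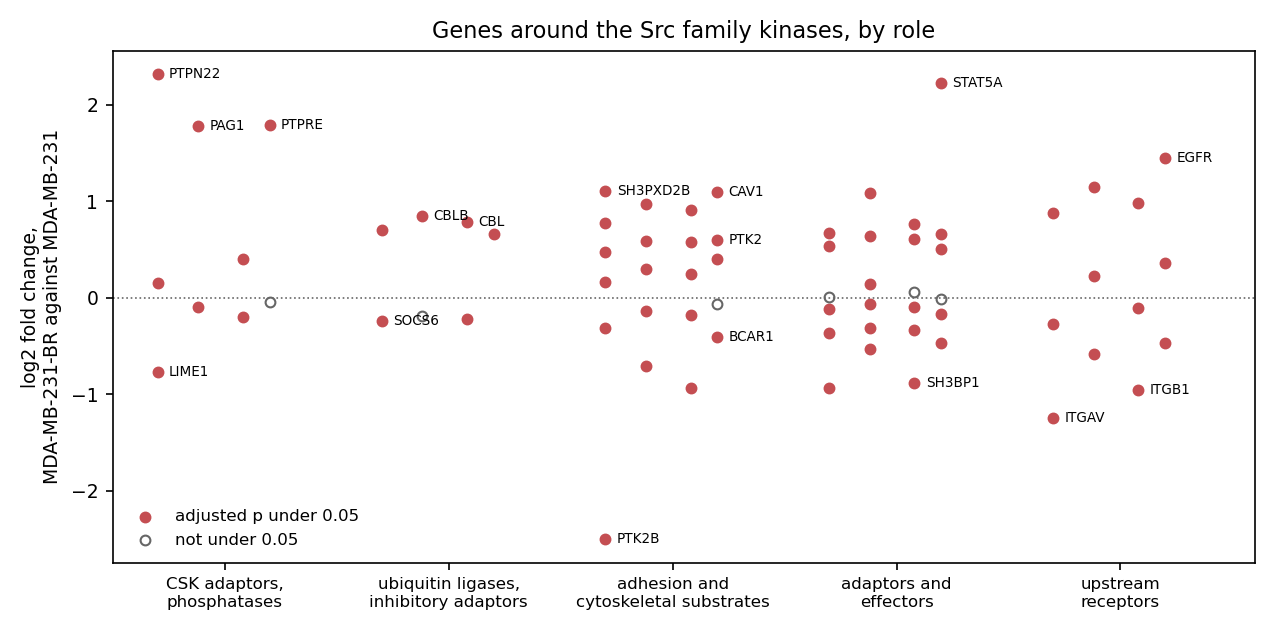
Log2 fold change of MDA-MB-231-BR against MDA-MB-231 cells for each testable gene of the 5 lists around the Src family kinases, with filled points for an adjusted p under 0.05. Genes listed at 0 in one line are not drawn. PAG1, PTPRE and PTPN22 stand above the other adaptors and phosphatases, and the integrins lie below 0. PTK2B, which reached the test through its parental values alone, lies far below the other adhesion genes.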

How the data were processed

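Poly(A) RNA of 3 MDA-MB-231-BR and 3 MDA-MB-231 libraries was sequenced on a BGISEQ-500. The authors filtered reads with SOAPnuke, mapped them with HISAT2 2.0.4, aligned them to a gene set with Bowtie2 2.2.5 and deposited FPKM per gene. The submitters' processing notes name GRCh38.p12. The program that computed the FPKM and the use of strand are not given in the sources used here, and neither are counts or depth. The 6 files of single samples hold the same values as the matrix.

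The members and lists were chosen with earlier results of these data known. Libraries were grouped by title, since the number within the cell line name of another label rises from sample to sample. For genes averaging 0.1 FPKM or more, log2(FPKM + 0.1) was compared between the lines in limma 3.58.1 (R 4.3.3), using a variance prior that follows the mean (eBayes, trend) and Benjamini-Hochberg adjustment at 0.05. The study used a test on counts, which needs values not used here. Ratios were compared by exact permutation (scipy 1.17.1). Figures used matplotlib 3.10.9.

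Named were all members, a set of genes fixed by symbol, the largest increase and decrease called in each list among genes reaching 1 FPKM in a line, and the 3 genes most like LYN, FYN and SRC, of which some results are not reported here. Gene positions came from GENCODE 29 (GRCh38), gene order and promoters from RefSeq (GRCh38.p14), where 16798 genes could be placed. Alternatives were pseudocounts of 1 and 0.01, no filter, a filter at 1 FPKM, median-of-ratios scaling, quantile normalization, no trend, a replicate block, each library left out and, for ratios, the family without LYN.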

Additional observations from a re-analysis of the deposited data

How the results depend on the processing

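The log2 fold changes of LYN, FYN, YES1 and CSK kept their direction and stayed past the threshold under all 14 alternatives, from -1.10 to -0.91, 0.85 to 0.94, -0.55 to -0.44 and 0.46 to 0.57, and SRC stayed short of it (-0.03 to 0.08). Leaving out single libraries gave -1.01 to -0.95 for LYN and 0.92 to 0.94 for FYN. LYN met the stricter criteria, making 1 member lower instead of 0, after median-of-ratios scaling (-1.06), after quantile normalization (-1.10) and without MDA-MB-231-BR replicate 3, so that with libraries left out the count ran from 0 to 1. These scalings moved the median of all genes from 0.08 to 0.00 and -0.06. The members called higher numbered 2 to 3 with libraries left out, since LCK dropped below the filter. Among the related kinases the count of higher genes was 0 with a filter at 1 FPKM and after quantile normalization, 2 with no filter and 0 to 1 with libraries left out. Of the lymphoid and myeloid genes, 0 were higher and 1 was lower with the filter at 1 FPKM, which leaves fewer genes to test. In alternatives chosen after seeing the data, the difference in the family sum (-5.67 FPKM) became 4.05 without YES1, -17.0 without FYN, -9.70 after median-of-ratios scaling and -1.09 after that scaling without LYN. Without LYN alone the differences became 2.29 FPKM for the family sum, 0.028 percentage points for the SRC share, -17.8 for the YES1 share and 0.271 for CSK over the sum. Scaling moved the split of all genes called from 5973 higher and 4433 lower to 5294 and 5142 by median of ratios and 4825 and 5749 by quantiles.

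The replicate numbers did not pair the libraries: deviations from the line means correlated at 0.087, -0.040 and -0.11 for numbers 1, 2 and 3, and MDA-MB-231-BR replicate 2 correlated best with MDA-MB-231 replicate 3 (0.18). With the replicate block 3 members were higher and 2 lower, as without it, and 6015 genes were higher and 4487 lower.

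No counts are at hand, so the precision of the values for LCK, BLK and MATK, which lie at or below 0.27 FPKM, cannot be given.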
